A study of Mus musculus with 10 samples.

Results

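Mouse embryos at the 8-cell stage in which Tfap2c had been knocked down were set directly against embryos in which Klf5 had been knocked down, to see which transcripts depended on 1 of these factors more than on the other. The groups were siTfap2c and siKlf5, of 2 libraries each, and they were joined by gene symbol. A gene entered the comparison with at least 1 linear unit of abundance in at least 2 of these 4 libraries. Of 24421 symbols 10123 did so, and 14298 did not. All embryos were of BDF1 genotype, and the labels name a Tfap2c KD, a Klf5 KD and a Control treatment, with no siRNA sequence, dose or day of delivery. The 2 control libraries are used below to place each gene, and 4 libraries with Tfap2c motif knockouts entered only the estimate of the spread. Each library was made from total RNA of embryos freed of zona and polar bodies, so it averages over all blastomeres. In such bulk samples fewer cells of a type and less RNA per cell cannot be told apart.

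Tfap2c belongs to the AP-2 transcription factors, which bind GC-rich palindromes as dimers, and in the early mouse embryo it is known for its part in polarity and in the trophectoderm, the outer epithelium that later forms the placenta. Klf5 is a zinc finger factor of the Krüppel-like family, which binds GC-rich and CACCC-like boxes, and it is known in the same embryo for its part in forming both the trophectoderm and the inner cell mass. The 8-cell stage is when blastomeres compact and polarise. Cdx2, a trophectoderm factor, and Arpc1b, a subunit of the actin-nucleating Arp2/3 complex, are included with the targets because the motif knockouts of the series are named for them.

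Values are the deposited log2(abundance + 1), and a difference is siTfap2c minus siKlf5 on that scale, fitted with limma, with its standard error (SE) and a p adjusted by the Benjamini-Hochberg method over all 10123 genes. A gene is called at an adjusted p under 0.05. No read counts enter the comparison and the depth is unknown, and the added 1 understates the differences of low genes. The linear values summed to 388454 to 395401 units in the control and knockdown libraries. The siKlf5, siTfap2c and control libraries stand in 3 separate tables that may have been scaled apart, which holds for every level set across groups here. Markers of 8-cell blastomeres, 10 of 10 among the genes compared and 0 of them at 0, summed to 1034 to 1058 linear units in control, 921 to 958 in siKlf5 and 686 to 697 in siTfap2c. The members did not move alike. Dppa3, Pou5f1, Tdgf1, Tead4 and Dppa5a were called lower in siTfap2c than in siKlf5. The call of Tead4 was lost without siTfap2c replicate 1 and without siKlf5 replicate 1. That of Dppa5a was lost without each of 5 of the control and knockdown libraries in turn. Sall4 stood at 7.70 and 7.67 in siKlf5 and 7.82 and 7.87 in siTfap2c. Cdh1 stood at 5.82 and 5.67 in siKlf5 and 5.85 and 5.90 in siTfap2c. Of 25 markers of cumulus and granulosa cells 2 were among the genes compared and neither was called. All 25 summed to 3.05 to 4.61 units in the 6 libraries, the 4 defining ones to 0.11 to 0.38, and Fshr was listed at 0 in all. Of 10 spermatid transcripts 0 were among the genes compared, the 3 defining ones summed to 0 to 0.78 units, and Tnp1 was listed at 0. A listed 0 does not show absence here, since Gapdh, a glycolytic enzyme of every cell, was listed at 0 in control replicate 1 and siKlf5 replicate 1 and at 0.25 to 0.76 on the log2 scale in the other 4 libraries.

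Each knockdown was read first in its own target. Tfap2c (mm10, chromosome 2, 172549593 to 172558622, plus strand) stood at 6.61 and 6.61 in control, 6.51 and 6.57 in siKlf5, and 3.94 and 4.09 in siTfap2c. The Klf5 knockdown left it at the control level, and the difference between knockdowns was -2.53 (SE 0.09, adjusted p = 3.2e-07). Klf5 (chromosome 14, 99298691 to 99315036, plus strand) stood at 7.2 and 7.13 in control, 4.36 and 4.17 in siKlf5, and 5.32 and 5.45 in siTfap2c. It was thus low in both knockdowns and lower in its own, by a difference of 1.12 (SE 0.10, adjusted p = 5.2e-05). Against control, Klf5 fell by 1.78 on the log2 scale in siTfap2c (adjusted p = 2.9e-06), so its transcript was reduced in both groups compared, and Tfap2c in 1 of them.

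Arpc1b (chromosome 5, 145114215 to 145130705, plus strand) stood at 4.71 and 4.48 in control, 4.21 and 4.28 in siKlf5 and 1.24 and 1.26 in siTfap2c. Its large fall was seen with the Tfap2c knockdown, and the difference was -3.00 (SE 0.11, adjusted p = 3.4e-07). In siKlf5 it lay at -0.35 against control (adjusted p = 0.093). Cdx2 (chromosome 5, 147300805 to 147307270, minus strand) stood at 2.35 and 2.48 in control, 1.15 and 1.23 in siKlf5 and 0.23 and 0.57 in siTfap2c. Both knockdowns lay below control and siTfap2c lay lower, by -0.79 (SE 0.23, adjusted p = 0.030). That last difference is a weak one. The call was lost without any 1 of the 4 knockdown libraries, with an adjusted p of 0.18 without siTfap2c replicate 1.

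Between the knockdowns 2919 genes were called, 28.8% of those tested, 1737 of them higher in siTfap2c (17.2%) and 1182 lower (11.7%). At least 2-fold differences were called for 489 genes (4.83%), 232 higher and 257 lower, and at least 4-fold ones for 6 higher and 38 lower. So the higher side held more genes, and the lower side held more of the large differences. In all 2919 the libraries of the groups did not overlap, as was the case for 6952 genes (68.7%) among all tested. The median difference over all genes was 0.06, and 5% lay below -0.69 and 5% above 0.80. The split by direction depends on the scaling: with every library centred on its median 1250 were higher and 1615 lower, or 43.6% higher in place of 59.5%. Of the 2919 genes 1339 kept their call without each knockdown library in turn. The number of calls was 1706 without siTfap2c replicate 1, 1795 without replicate 2, 1856 without siKlf5 replicate 1 and 1905 without replicate 2. For scale, siTfap2c against control gave 2708 calls in the same fit (26.8%) and siKlf5 against control 847 (8.37%). These comparisons share libraries with the one between knockdowns.

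**Figure D1:**
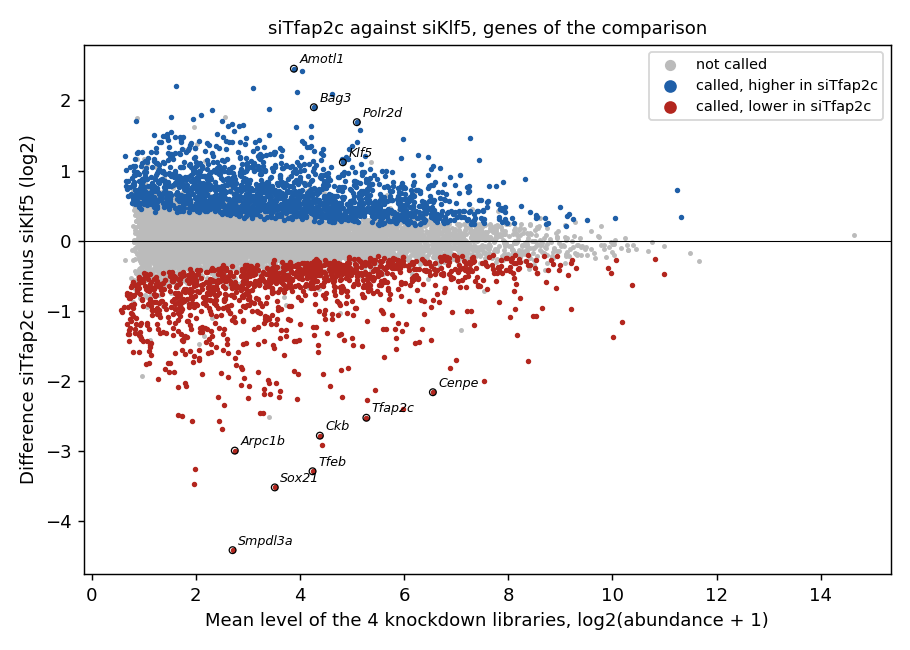
Each point is 1 of the 10123 genes, with the mean level of the 4 knockdown libraries on the x axis (log2(abundance + 1)) and the difference siTfap2c minus siKlf5 on the y axis (log2). Blue and red points are the 1737 genes called higher and the 1182 called lower, and the differences under -2 outnumber those above 2, with Smpdl3a lowest at -4.42 and Amotl1 at 2.45.

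The control libraries show which knockdown lay further from control. For each called gene the control mean was placed on the line from the siKlf5 mean (0) to the siTfap2c mean (1). Within 0.25 of 0 the gene is at the siKlf5 level, and siTfap2c alone is said to stand apart. Within 0.25 of 1 the gene is at the siTfap2c level, and siKlf5 alone is said to stand apart. These bounds are shares of the difference, so with a large difference the other knockdown can still lie off control. Ckb, classed at the siKlf5 level, was at -0.36 in siKlf5 against control (adjusted p = 0.062). The placing is a description with no test. The control was at the siKlf5 level for 1131 called genes (516 lower and 615 higher in siTfap2c) and at the siTfap2c level for 332 (101 lower and 231 higher). It lay between the knockdowns for 927 genes (299 lower and 628 higher). It lay beyond siKlf5 for 438, where both knockdowns were displaced from control on the same side and siTfap2c further, and beyond siTfap2c for 91, where siKlf5 was further. Among the 489 genes with at least 2-fold differences the counts were 272 at the siKlf5 level, 32 at the siTfap2c level, 131 between, 51 beyond siKlf5 and 3 beyond siTfap2c. The genes that stood apart in siTfap2c by at least 2-fold were more often lower (175) than higher (97), and those that stood apart in siKlf5 were 25 higher in siTfap2c, that is lower in siKlf5, and 7 the other way. The count at the siTfap2c level was 157 without siTfap2c replicate 1, 154 without replicate 2 and 192 without siKlf5 replicate 2, and that at the siKlf5 level was 737 without siTfap2c replicate 1 and 741 without siKlf5 replicate 1. Without each of the 4 knockdown libraries in turn the count beyond siKlf5 was 220 to 270 and that beyond siTfap2c 30 to 51, and the count between was 562 without siTfap2c replicate 1 and 550 without replicate 2.

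**Figure D2:**
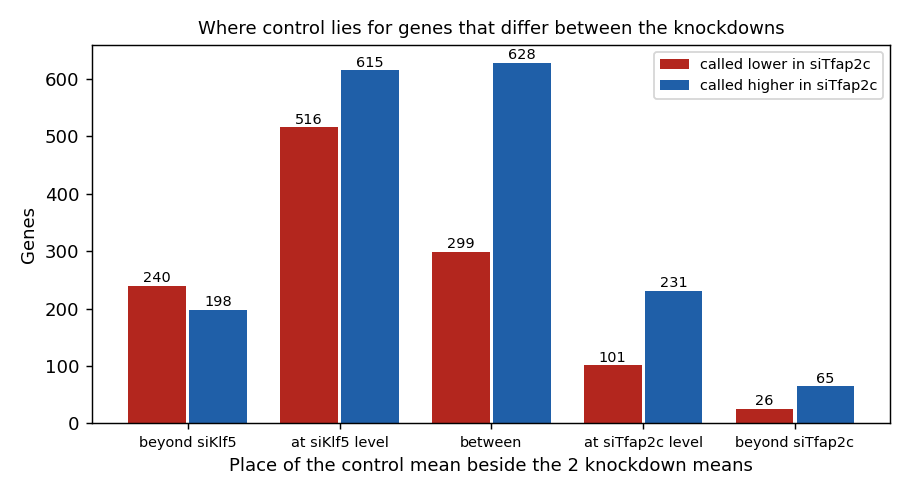
Bars count the genes called between the knockdowns (y axis) by where the control mean lies beside the 2 knockdown means (x axis), in red for genes lower in siTfap2c and in blue for genes higher. The control was at the siKlf5 level for 516 lower and 615 higher genes, and at the siTfap2c level for 101 and 231.

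Most of the largest falls in siTfap2c were in genes whose siKlf5 level was near that of control. Smpdl3a (chromosome 10, 57794335 to 57811830), a sphingomyelinase-like phosphodiesterase, stood at 5.02 and 4.71 in control, 4.79 and 5.04 in siKlf5 and 0.29 and 0.71 in siTfap2c. Its transcript was near 0 with the Tfap2c knockdown alone, a difference of -4.42 (SE 0.19, adjusted p = 7.6e-07). Sox21 (chromosome 14, 118233232 to 118237030), a transcription factor with a part in the early bias of blastomeres, stood at 5.10 and 5.27 in control, 5.40 and 5.16 in siKlf5 and 1.43 and 2.08 in siTfap2c. The difference was -3.52 (SE 0.19, adjusted p = 3.0e-06). Tfeb (chromosome 17, 47737030 to 47792419), the factor that drives genes of lysosomes and autophagy, stood at 6.03 and 6.24 in control, 5.86 and 5.92 in siKlf5 and 2.45 and 2.75 in siTfap2c. It too stood apart in siTfap2c, by -3.29 (SE 0.11, adjusted p = 3.2e-07), with siKlf5 at -0.25 against control. Ckb (chromosome 12, 111669361 to 111672338), the brain-type creatine kinase, stood at 6.14 and 6.12 in control, 5.76 and 5.79 in siKlf5 and 2.98 and 3.01 in siTfap2c, a difference of -2.78 (SE 0.10).

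The other large falls had smaller levels or differences of the same pattern. Ly6a, a GPI-anchored surface protein, differed by -3.47, Arhgdia, which holds small GTPases inactive, by -2.92 and Pfkfb2, a regulator of glycolysis, by -2.69. Ppm1k, a mitochondrial phosphatase of branched-chain amino acid breakdown, differed by -2.58, the fatty acid carrier Fabp5 by -2.46, the ribosome rescue factor Pelo by -2.45, the autophagy lipid transporter Atg2a by -2.41 and the lysophospholipid acyltransferase Mboat2 by -2.35. For each of these named genes the control was at the siKlf5 level. All 15 of the largest falls stayed called when any 1 of the 6 control and knockdown libraries was left out.

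The largest rises in siTfap2c were mixed in where the control lay. Amotl1 (chromosome 9, 14541966 to 14645056), an angiomotin of the Hippo pathway, stood at 1.87 and 1.34 in control, 2.68 and 2.64 in siKlf5 and 4.98 and 5.24 in siTfap2c. It was higher than control in both knockdowns and highest in siTfap2c, by 2.45 over siKlf5 (SE 0.18, adjusted p = 1.4e-05). Scd2 (chromosome 19, 44293674 to 44306864), a desaturase of fatty acids, stood at 2.59 and 2.67 in control, 2.62 and 3.02 in siKlf5 and 5.30 and 5.18 in siTfap2c. Its rise was seen in siTfap2c alone, a difference of 2.42 (SE 0.17, adjusted p = 1.4e-05). Bag3, a co-chaperone of Hsp70, stood at 4.41 and 4.54 in control, 3.42 and 3.21 in siKlf5 and 5.17 and 5.27 in siTfap2c. It moved to opposite sides of control, -1.16 in siKlf5 (adjusted p = 0.00047) and 0.74 in siTfap2c (adjusted p = 0.00053), which adds up to a difference of 1.90 between them. Lmod1, an actin nucleator of the leiomodin family, did likewise, with -1.0 in siKlf5, 1.11 in siTfap2c and 2.11 between them.

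Of the remaining large rises most had their control near siKlf5. B4galt6, which makes lactosylceramide, differed by 2.18, Il17rd, an antagonist of FGF signalling, by 2.09, Hcn3, a cation channel, by 1.66, Tmem150c by 1.63, the actin-binding calponin Cnn3 by 1.63, AU015228 by 1.63 and Cdkn1a, an inhibitor of cyclin-dependent kinases, by 1.48. For Nme4, a mitochondrial nucleoside diphosphate kinase (1.56), Rwdd4a (1.5) and Hcn3 the control lay between the knockdowns. Polr2d (1.69) was the exception among the 15, with its control at the siTfap2c level, and is described with the genes that stood apart in siKlf5. All 15 stayed called when any 1 of those 6 libraries was left out.

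**Figure D3:**
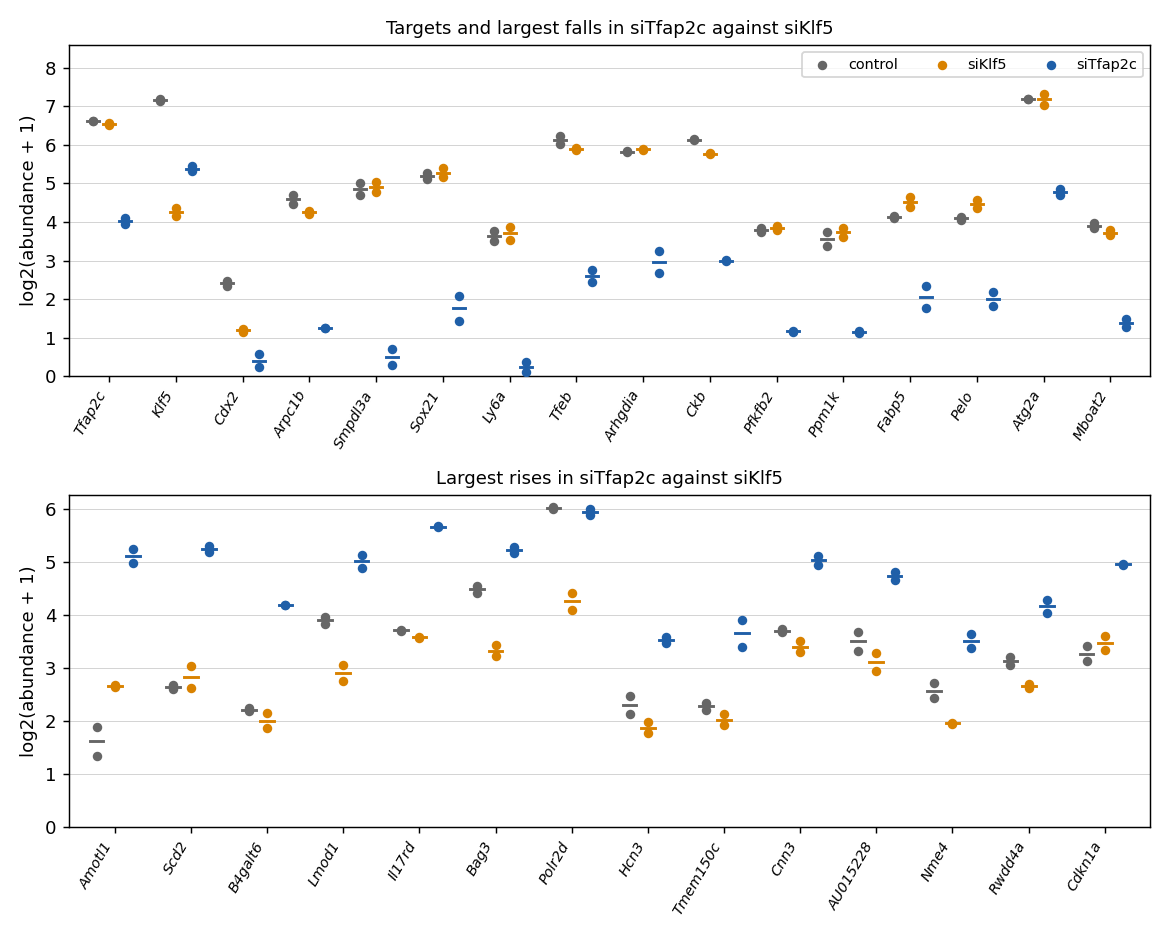
Points are single libraries and short lines group means of the level (y axis, log2(abundance + 1)) in control (grey), siKlf5 (orange) and siTfap2c (blue), for the 4 targets and the largest falls (top) and largest rises (bottom) reported here. For most of the falls the grey and orange points lie together and the blue ones below, as in Smpdl3a at 0.29 and 0.71 in siTfap2c.

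The genes that stood apart in siKlf5 had smaller differences. Polr2d (chromosome 18, 31789159 to 31796701), a subunit of RNA polymerase II, stood at 6.02 and 6.0 in control, 4.41 and 4.09 in siKlf5 and 6.0 and 5.88 in siTfap2c. The Tfap2c knockdown left it at the control level although Klf5 transcript was reduced there too, and the difference was 1.69 (SE 0.13, adjusted p = 2.8e-05). Atp1b3 (chromosome 9, 96332655 to 96364442), a beta subunit of the sodium-potassium pump, stood at 5.66 and 5.79 in control, 4.31 and 4.48 in siKlf5 and 5.92 and 5.70 in siTfap2c. The difference was 1.41 (SE 0.10, adjusted p = 1.7e-05), with control and siTfap2c libraries overlapping and both siKlf5 libraries below. Uck2 (chromosome 1, 167222883 to 167285320), a kinase that salvages uridine and cytidine, stood at 6.55 and 6.57 in control, 5.37 and 5.32 in siKlf5 and 6.59 and 6.46 in siTfap2c, a difference of 1.18 (SE 0.08, adjusted p = 8.7e-06). Cabin1, which binds calcineurin, differed by 1.24, the forkhead factor Foxn3 by 1.20, Fdx1, a mitochondrial ferredoxin, by 1.20, the kinase Cdk16 by 1.19, Isca1, of iron-sulfur cluster assembly, by 1.11, the phosphatase Dusp14 by 1.04 and the phospholipid flippase Atp8b2 by 1.02. These 10 stayed called when any 1 library was left out. The values of Isca1 and Atp8b2 rested most on 1 library: they ranged from 0.77 to 1.44 and from 0.65 to 1.39 as libraries were left out.

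In the other direction the named genes that were higher in siKlf5, with control at the siTfap2c level, differed less still, apart from Rps12. Klhl21, an adaptor of the Cul3 ubiquitin ligase, stood at 4.36 and 4.51 in control, 5.21 and 5.24 in siKlf5 and 4.22 and 4.38 in siTfap2c, a difference of -0.92 (SE 0.16, adjusted p = 0.0026). Sos2, an exchange factor of Ras, stood at 5.44 and 5.45 in control, 6.10 and 6.11 in siKlf5 and 5.25 and 5.44 in siTfap2c, a difference of -0.76 (SE 0.10, adjusted p = 0.00056). In both genes the siKlf5 libraries lay above the other 4. Ppp1r14a, an inhibitor of myosin phosphatase, differed by -0.89 and Gyk, glycerol kinase, by -0.75, and these 4 kept their call without each library. The other 6 named by the same rule did not. Rps12, a ribosomal protein gene with many copies in the genome, differed by -1.45 (adjusted p 0.21 without siTfap2c replicate 1, which alone of that group lay as low as 4.93, the other at 6.19). Snord95, a small nucleolar RNA, differed by -0.78 (0.11 without siKlf5 replicate 1), the deadenylase Cnot6l by -0.73 (0.054 without siTfap2c replicate 2) and the collagen receptor Ddr2 by -0.68 (0.077 without siKlf5 replicate 2). The tRNA methyltransferase Trmt10a differed by -0.66 (0.10 without siTfap2c replicate 1) and the deubiquitinase Usp25 by -0.65 (0.086 without siTfap2c replicate 1).

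**Figure D4:**
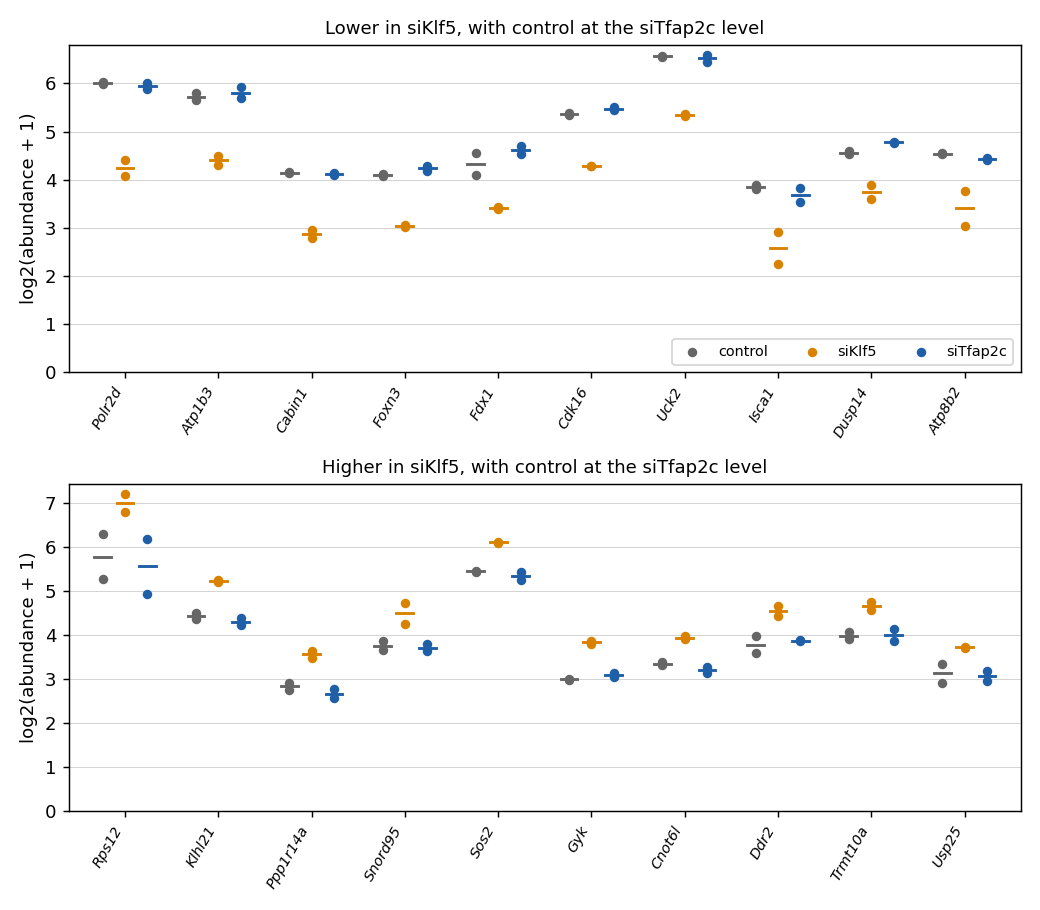
Points are single libraries and short lines group means of the level (y axis, log2(abundance + 1)) for genes called between the knockdowns whose control is at the siTfap2c level, 10 lower in siKlf5 (top) and 10 higher in siKlf5 (bottom). Grey and blue points lie together and orange ones apart, as for Uck2 at 5.37 and 5.32 in siKlf5, while Rps12 has a wide spread within every group.

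Some genes moved alike with both knockdowns. These were picked for a call against control in the same direction in both and a 95% confidence interval of the difference between knockdowns within -0.6 to 0.6, so their likeness is how they were chosen and not a result. Steap3, a metalloreductase of iron uptake, stood at 6.69 and 6.59 in control, 5.18 and 5.06 in siKlf5 and 5.17 and 5.03 in siTfap2c. The interval of its difference was -0.26 to 0.22. The scaffold protein Ahnak, the Wnt antagonist Sfrp1, the Nogo receptor Rtn4r, the RhoA exchange factor Net1 and Sync, which binds intermediate filaments, were also lower in both. Their differences from control were -1.40, -1.27, -1.13, -1.19 and -1.16 in siTfap2c and -1.35, -1.20, -1.24, -1.12 and -1.14 in siKlf5, in that order. Higher in both were Sec61a2 of the translocon, the chaperone Dnajb9 of the endoplasmic reticulum, Zfp367, the kinase Pak2, P4ha2, a collagen prolyl hydroxylase, and the chromatin protein Hmgb1. Hmgb1 stood at 6.73 and 6.86 in control, 7.48 and 7.55 in siKlf5 and 7.58 and 7.68 in siTfap2c, with an interval of -0.09 to 0.32.

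The promoters of these genes are shown for what they hold of the letters that the 2 families bind. AP-2 letters were searched as GCCNNNGGC, which reads alike on both strands, and Klf letters as GGGNGNGG or, on the other strand, CCNCNCCC. The windows run from 250 bases before to 50 after each start in RefSeq on GRCm38.p6, which matched 7549 of the 10123 genes with 9560 windows. The stretches below lie upstream of the start, are written 5′ to 3′ on the gene's strand, and have the searched letters in capitals. Sox21 and Ckb are shown as genes lower in siTfap2c with control at the siKlf5 level. Fdx1 and Cdk16 are shown as genes lower in siKlf5 with control at the siTfap2c level, and Cdx2 as a gene low in both. They were picked as genes that have the letters of the family knocked down, so having them is not a result. They are from chr14:118237175-118237263 and chr12:111672532-111672588, minus strand, for AP-2 letters, and from chr9:51963603-51963675 (minus), chrX:20687873-20687953 (plus, 1 of 2 starts) and chr5:147307332-147307419 (minus) for Klf letters.
Sox21: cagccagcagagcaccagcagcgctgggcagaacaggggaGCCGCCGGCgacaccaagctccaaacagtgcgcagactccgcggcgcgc
Ckb: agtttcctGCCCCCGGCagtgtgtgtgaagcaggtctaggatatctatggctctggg
Fdx1: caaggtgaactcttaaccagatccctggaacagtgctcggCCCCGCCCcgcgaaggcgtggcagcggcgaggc
Cdk16: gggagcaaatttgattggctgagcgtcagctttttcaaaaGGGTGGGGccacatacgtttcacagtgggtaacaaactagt
Cdx2: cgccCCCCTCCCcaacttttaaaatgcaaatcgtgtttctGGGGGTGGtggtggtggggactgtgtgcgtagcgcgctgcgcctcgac

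Other genes of the same classes lacked these letters or had those of the other family. Of 10 of the largest falls with a window 4 had AP-2 letters and 8 had Klf letters. Tfeb and Arpc1b had Klf letters, with 11 and 6 matches, and 0 AP-2 matches, and Sox21 had 1 Klf match beside its AP-2 match. Overlapping matches within 1 run of letters each count, and the 11 of Tfeb are summed over the windows of 3 starts. Of 9 named genes lower in siKlf5 with control at the siTfap2c level 6 had Klf letters and 4 had AP-2 letters. Cabin1 and Foxn3 had neither, and Cdk16, like Cdx2, had AP-2 letters as well.

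These letters are common. AP-2 letters were in 25.5% of the windows of all genes compared, 27.6% of those of genes called lower in siTfap2c and 28.4% of those of genes called higher. They were in 27.0% of the windows of genes at least 2-fold lower with control at the siKlf5 level and in 32.1% of those of genes at least 2-fold higher with control there, 26 of 81 windows. With control at the siTfap2c level they were in 30.4% of the windows of genes called higher and 29.1% of those called lower. Klf letters were in 67.7% of all windows compared. With control at the siTfap2c level they were in 71.7% of the windows of genes called higher and 68.0% of those called lower. For genes at least 2-fold lower and higher with control at the siKlf5 level the Klf shares were larger, 73.05% and 74.07%. Over all 32851 windows of the table the shares were 16.6% for AP-2 and 49.5% for Klf letters. The shares among the called genes were above those of all genes compared in both directions of change, no test was made of these gaps, and the letters in 1 window say nothing on binding.

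The lists that follow were written for the tissue with earlier results of these data known, so an excess of calls in them is no independent result. Each list is given by its members among the genes compared. Counts are to be read against 17.2% called higher and 11.7% called lower among all genes, and medians against 0.06. A call "held" where it was kept without each of the 4 knockdown and 2 control libraries in turn. With centred libraries the balance of calls turned lower, or even, in several lists, with 6 higher and 9 lower for FGF signalling, 1 and 6 for junctions, 1 and 5 for primitive endoderm, 3 and 8 for oxidative phosphorylation, 3 and 4 for two-cell-stage transcripts, 2 and 2 for keratins, 3 and 3 for sphingolipid enzymes, 2 and 2 for oocyte-inherited transcripts and 1 and 1 for AP-2 coregulators. In some lists with more lower than higher calls it moved further the same way, with 1 higher and 7 lower for glycolysis, 4 and 15 for DNA replication, 3 and 12 for the cell cycle, 3 and 7 for Nodal and BMP signalling and 3 and 6 for JAK-STAT.

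Of 17 genes of the trophectoderm program 9 were lower and 3 higher in siTfap2c, with a median of -0.41. Tfap2c itself is 1 of the 9. Cldn4, a tight junction claudin, stood at 5.92 and 5.94 in control, 5.09 and 5.06 in siKlf5 and 2.56 and 3.08 in siTfap2c. It was lower in both knockdowns and by much more in siTfap2c (difference -2.26, SE 0.17, adjusted p = 2.0e-05). Fgfr2, the FGF receptor of the trophoblast lineage, stood at 3.92 and 3.85 in control, 3.76 and 4.04 in siKlf5 and 1.72 and 1.95 in siTfap2c, a difference of -2.07 (SE 0.13). The T-box factor Tbx20 (-1.35), the glucose transporter Slc2a3 (-1.01) and Gata3 (-0.97), a factor of trophoblast identity, likewise had control at the siKlf5 level. Going the other way, Krt8, the keratin of early epithelium, stood at 3.19 and 2.76 in control, 1.66 and 1.41 in siKlf5 and 2.74 and 2.88 in siTfap2c (difference 1.27, SE 0.23, adjusted p = 0.0028). Hand1, a factor of trophoblast giant cells, differed by 0.94 with control at the siTfap2c level too, and Ppp2r2b by 1.16. So Fgfr2, Tbx20, Slc2a3 and Gata3 stood apart in siTfap2c, and Krt8 and Hand1 in siKlf5. In all, 6 of the 9 lower and the 3 higher calls held. Those of Cdx2, Tead4, the Hippo effector of trophectoderm (-0.41), and Esrrb (-1.90) did not, with an adjusted p of 0.065 for Tead4 without siTfap2c replicate 1 and 0.082 for Esrrb without siTfap2c replicate 2.

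Of 30 genes of pluripotency and the inner cell mass 16 were lower and 3 higher, with a median of -0.33. Pou5f1, the central factor of pluripotency, stood at 6.48 and 6.50 in control, 6.22 and 6.34 in siKlf5 and 4.89 and 5.14 in siTfap2c (difference -1.26, SE 0.10, adjusted p = 2.2e-05). Klf4, a Krüppel-like factor of pluripotency, stood at 6.19 and 6.16 in control, 6.21 and 6.01 in siKlf5 and 4.96 and 5.20 in siTfap2c (difference -1.03, SE 0.11). Tdgf1, the Nodal co-receptor, stood at 5.95 and 5.73 in control, 4.87 and 4.96 in siKlf5 and 3.04 and 2.99 in siTfap2c (difference -1.90, SE 0.10). Pou5f1 and Klf4 were near the control level in siKlf5, and Tdgf1 was lower in both and more so in siTfap2c. Dppa3, a maternal chromatin protein, differed by -0.82 and Sox15 by -0.67. Fgf4, the FGF ligand of the inner cell mass, was higher, at 3.83 and 3.63 in siTfap2c against 2.41 and 2.5 in siKlf5 and 2.59 and 2.89 in control (difference 1.28, SE 0.16). Only 6 of the 16 lower and 2 of the 3 higher calls held. Tfcp2l1 (-0.69), a factor of naive pluripotency that was lower in both knockdowns, had an adjusted p of 0.061 without siTfap2c replicate 1. Of 9 primitive endoderm genes 3 were lower and 3 higher (median -0.38). Gata6, the factor of that lineage, differed by -0.76, from 6.99 and 7.06 in siKlf5 to 6.21 and 6.31 in siTfap2c with 6.86 and 6.82 in control. Lamc1, a laminin chain, differed by 0.84 with control at the siTfap2c level. The call of Cubn (0.47) was lost without any 1 knockdown library (0.15 without siTfap2c replicate 2).

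Within the factors' own families, 10 of 16 Klf and Sp genes were called, 6 higher and 4 lower (median 0.10), and 4 and 2 of these held. Besides Klf5 and Klf4, Klf10 differed by -1.35, Klf11 by 0.98, Klf8 by 0.72, Sp6 by 0.72 and Klf17, a factor of the early cleavage stages, by 0.58 (adjusted p 0.058 without siTfap2c replicate 1). Klf11 stood at 2.56 and 2.63 in control, 1.88 and 1.91 in siKlf5 and 2.90 and 2.86 in siTfap2c, so it was low with the Klf5 knockdown only. Klf8 was below control in both, at -1.26 in siKlf5 and -0.54 in siTfap2c. Of 5 AP-2 genes 2 were among those compared, and Tfap2c alone was called. Of 7 AP-2 coregulators Kctd15, which inhibits AP-2, was lower (-0.91), and Cited1 (0.43) and Ep300 (0.40) were higher. Ep300 lost its call without siTfap2c replicate 1, siTfap2c replicate 2 or siKlf5 replicate 2, and when libraries were centred.

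The list of p53 response and apoptosis lay highest, with 17 of 32 genes higher and 2 lower in siTfap2c and a median of 0.50. Cdkn1a stood at 3.41 and 3.13 in control, 3.59 and 3.33 in siKlf5 and 4.94 and 4.95 in siTfap2c (difference 1.48, SE 0.19, adjusted p = 0.00046). Trp53inp1, a p53 target that acts in cell death and autophagy, stood at 5.31 and 5.21 in control, 5.31 and 5.21 in siKlf5 and 6.73 and 6.69 in siTfap2c (difference 1.45, SE 0.10, adjusted p = 1.3e-05). Ccng1, a cyclin induced by p53, stood at 2.64 and 2.72 in control, 2.54 and 2.74 in siKlf5 and 3.91 and 4.05 in siTfap2c (difference 1.34, SE 0.13). For all 3 the siKlf5 libraries lay with control and siTfap2c above both. Among the 17 higher genes control was at the siKlf5 level for 9. It lay beyond siKlf5 for 5, which were thus above control in both knockdowns, between the knockdowns for 2 and at the siTfap2c level for 1. The pro-apoptotic Pmaip1 differed by 1.33, Bbc3 by 1.27 and Bid by 1.00, and Apaf1, which assembles the apoptosome, by 0.82. Bcl2l1, which opposes apoptosis, differed by 0.80, but with its control at the siTfap2c level and siKlf5 at -0.66 against control. Lower in siTfap2c were Mcl1, a survival factor (-0.66), and Perp, a p53 target of desmosomes (-0.87, adjusted p 0.084 without siTfap2c replicate 2). Of the 17 higher calls 13 held, and 16 stood with centred libraries. The summed markers of 8-cell blastomeres were lowest in siTfap2c, though their members split as given above, and their part in these differences was not tested.

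Sterol and fatty acid synthesis showed 11 of 31 genes higher and 2 lower (median 0.16), and 8 of the 11 and 0 of the 2 held. Beside Scd2, the desaturase Fads1 stood at 2.48 and 2.21 in control, 2.20 and 2.27 in siKlf5 and 3.69 and 3.70 in siTfap2c (difference 1.46, SE 0.15). Dhcr7, of the last step of cholesterol synthesis, stood at 3.19 and 3.06 in control, 3.27 and 3.09 in siKlf5 and 4.32 and 4.21 in siTfap2c (difference 1.08, SE 0.13). Fdft1, squalene synthase, stood at 6.74 and 6.74 in control, 6.60 and 6.61 in siKlf5 and 7.53 and 7.55 in siTfap2c (difference 0.94, SE 0.07). In these enzymes siKlf5 was near the control level. Sqle differed by 0.83, Scd1 by 0.78 and Fdps by 0.58. The 2 lower genes were Hsd17b7 (-0.64, adjusted p 0.11 without siTfap2c replicate 2) and Elovl6 (-0.44, 0.063 without siTfap2c replicate 1).

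Of 40 genes of lysosomes and the Tfeb family 11 were lower and 6 higher, with a median of -0.01, and 9 and 4 of these held. Below Smpdl3a and Tfeb came Ctsh, a cathepsin, at 4.42 and 4.49 in control, 4.0 and 4.23 in siKlf5 and 3.00 and 2.99 in siTfap2c (difference -1.12, SE 0.11). Gaa, the acid glucosidase of glycogen, differed by -0.91, the sphingolipid activator Psap by -0.58, and the cholesterol exporters Npc2 by -0.53 and Npc1 by -0.51. On the other side, Smpdl3b differed by 1.06, the membrane protein Lamp2 by 0.78 and the ceramidase Asah1 by 0.72. Tfeb itself was much lower, while the median of the list between the knockdowns was near that of all genes. Against control the list's median was -0.11 in siTfap2c and -0.13 in siKlf5. Over all genes these medians were 0.05 and -0.01. Among 21 enzymes of sphingolipids and surface glycans 4 were higher and 2 lower (median 0.12), and 2 and 1 held. With B4galt6, Sgpl1, which breaks down sphingosine phosphate, was higher (0.85), and Sptssa, a subunit of the first enzyme of the pathway, was lower (-0.74). Cers2, a ceramide synthase that was lower than control in both knockdowns, differed by 0.45 (adjusted p 0.13 without siTfap2c replicate 2).

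Within the Arp2/3 complex and its activators Arpc1b was the exception. Of 20 genes 7 were higher in siTfap2c and 1, Arpc1b, was lower (median 0.25). The actin-nucleation promoters Wasf2 stood at 5.28 and 5.40 in control, 4.97 and 5.04 in siKlf5 and 5.59 and 5.63 in siTfap2c (difference 0.60, SE 0.10), and Wasl differed by 0.45. These 2 held. The calls of Arpc2 (0.26), Arpc4 (0.35), Cyfip1 (0.42), Brk1 (0.44) and Wash1 (0.55) did not, with a highest adjusted p of 0.21 for Arpc2 without siTfap2c replicate 1, 0.17 for Arpc4 and 0.13 for Cyfip1 without siKlf5 replicate 2, 0.12 for Brk1 without siTfap2c replicate 2 and 0.14 for Wash1 without siTfap2c replicate 1. With centred libraries 3 were higher and 2 lower.

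Of 50 actins and actin-binding proteins 15 were lower and 8 higher in siTfap2c (median -0.07), and 10 and 4 held. Lasp1, an adaptor of focal contacts, stood at 5.94 and 5.75 in control, 4.28 and 3.79 in siKlf5 and 2.83 and 2.85 in siTfap2c (difference -1.20, SE 0.17, adjusted p = 0.00071). It was low in both knockdowns and lowest in siTfap2c, and the transgelin Tagln2 (-1.17) followed the same order. Of the 15 lower genes 11 had control beyond siKlf5. The GTPase Rhob (-1.10) and talin, Tln1 (-0.80), stood apart in siTfap2c alone. Rhoa, the GTPase that contracts the cortex, stood at 6.02 and 6.02 in control, 5.45 and 5.42 in siKlf5 and 6.04 and 6.04 in siTfap2c (difference 0.61, SE 0.07, adjusted p = 0.00024). It stood apart in siKlf5 alone. Actn1, which cross-links filaments, stood at 5.01 and 4.99 in control, 3.14 and 3.22 in siKlf5 and 3.95 and 4.01 in siTfap2c (difference 0.80, SE 0.09), low in both and lower in siKlf5. Cfl2, a cofilin, differed by 1.08, at 0.52 against control in siTfap2c and -0.56 in siKlf5. The actins themselves differed less, Actg1 by 0.50 and Actb by -0.23. The call of Actb was lost without any 1 of the 6 control and knockdown libraries, where its difference ran from -0.27 to -0.18. It was also lost with linear values scaled to the same sum, without the filter on low values, with a prior without trend and with the replicate block.

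Outer-cell machinery moved gene by gene. Of 20 polarity genes 4 were higher and 0 lower (median 0.05), and none of the 4 held: Podxl (0.95), Inadl (0.40), Prkci, the atypical protein kinase C (0.37), and Mark2 (0.31) had a highest adjusted p of 0.12 and 0.20 without siTfap2c replicate 1 for Podxl and Mark2, 0.16 for Inadl without siTfap2c replicate 2 and 0.28 for Prkci without siKlf5 replicate 2. With centred libraries 1 was higher and 1 lower. Of 20 junction genes 4 were lower and 4 higher (median -0.13). Cldn4 and Plekha7, an adherens junction adaptor (0.91), held. Of 6 keratin and desmosome genes 2 were higher and 1 lower: Krt8 (1.27) and Dsp, desmoplakin (1.12), held, and Plec (-0.37), lower in both knockdowns, had an adjusted p of 0.16 without siKlf5 replicate 1. Dsp stood at 1.68 and 1.17 in control, 1.08 and 1.37 in siKlf5 and 2.18 and 2.5 in siTfap2c and was thus high in siTfap2c, where Krt8 was low in siKlf5. Of 11 genes of ion and water transport 4 were lower and 3 higher (median -0.26), and 2 and 3 held. Aqp3, a water channel, stood at 6.82 and 6.70 in control, 5.74 and 5.49 in siKlf5 and 3.63 and 3.47 in siTfap2c (difference -2.07, SE 0.10, adjusted p = 1.9e-06), lower in both and more so in siTfap2c. The calcium pump Atp2b1 differed by -0.97, and the pump subunits Atp1b3 by 1.41 and Atp1b2 by 1.14.

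Hippo pathway genes included 2 angiomotins that went opposite ways. Of 26 genes 7 were higher and 3 lower (median 0.08), and 6 and 2 held. Amot stood at 4.98 and 4.97 in control, 4.62 and 4.81 in siKlf5 and 2.46 and 2.5 in siTfap2c, a difference of -2.24 (SE 0.13, adjusted p = 3.6e-06) beside the 2.45 of Amotl1. Both stood furthest from control in siTfap2c. Ctgf, a target of the Yap effectors, stood at 2.91 and 2.58 in control, 3.04 and 2.86 in siKlf5 and 4.28 and 4.27 in siTfap2c (difference 1.33, SE 0.14), while Cyr61, another such target, differed by -0.93. The scaffold Ajuba differed by 1.21, Tead1 by 0.90 and the kinase Taok1 by 0.78.

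Of 25 FGF and Ras-MAPK genes 8 were lower and 8 higher (median 0.15), and 4 and 3 held. Spred1, which restrains Ras, stood at 3.74 and 3.82 in control, 4.60 and 4.52 in siKlf5 and 2.67 and 2.37 in siTfap2c (difference -2.04, SE 0.12, adjusted p = 4.9e-06). The knockdowns moved it to opposite sides of control, 0.77 in siKlf5 and -1.26 in siTfap2c. The antagonist Il17rd was instead higher in siTfap2c (2.09), and so was the ligand Fgf4, while the receptor Fgfr2 and the adaptor Grb7 (-1.05) were lower. Of 19 genes of Nodal, BMP and TGF-beta signalling 5 were lower and 4 higher (median -0.06), and 3 and 2 held. Smad7, an inhibitor, stood at 4.26 and 4.35 in control, 3.91 and 3.66 in siKlf5 and 5.11 and 5.08 in siTfap2c (difference 1.31, SE 0.11), on opposite sides of control. The effectors Smad3 (-0.94) and Smad4 (-0.53) were lower. Of 20 JAK-STAT and interferon genes 6 were lower and 5 higher (median -0.0028), and 4 and 2 held. Irf9 (-1.91) and Oasl2 (-1.47), both of the interferon response, were lower beside Ly6a, and Stat2, the partner of Irf9, was higher (0.92). Of 16 nuclear receptors 4 were lower and 4 higher (median -0.03). The calls of Esrra (-0.80), Rarb (-0.72), Rxra (0.77) and Nr2c2 (0.80) held.

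Energy and nutrient genes differed in a few enzymes. Of 29 genes of glycolysis and linked pathways 5 were lower and 4 higher (median -0.05), and 5 and 1 held, but with centred libraries 7 were lower and 1 higher. Beside Ckb, the hexokinase Hk2 stood at 4.08 and 4.15 in control, 4.10 and 3.95 in siKlf5 and 2.52 and 2.67 in siTfap2c (difference -1.43, SE 0.15). Hk1 differed by -1.0, and the enolase Eno1 by 1.13. Of 74 genes of oxidative phosphorylation 4 were higher and 3 lower (median 0.10), and only Cox5a (0.64) held. Of 19 glutathione and Nrf2 genes 4 were lower and 0 higher (median 0.00058), or 4 and 2 with linear values scaled to the same sum: Gsto1 (-2.24) and Gpx1 (-1.15), which detoxify with glutathione, held, and Hmox1 (-0.75, adjusted p 0.089 without siKlf5 replicate 2) and Prdx6 (-0.70, 0.071 without siTfap2c replicate 1) did not. Of 12 polyamine genes Srm (-0.84) and Odc1 (-0.48) were lower and 0 higher (median -0.04).

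Stress genes went both ways. Of 30 genes 10 were lower and 6 higher (median -0.15), and 6 and 3 held. Hsf2, a heat shock factor, stood at 4.79 and 4.62 in control, 4.45 and 4.57 in siKlf5 and 2.91 and 2.85 in siTfap2c (difference -1.63, SE 0.09). The cytosolic chaperones Hsp90aa1 and Hsph1 differed by -0.63 each, with siTfap2c at -0.64 and -0.33 against control. The endoplasmic chaperones Hsp90b1 (-0.51) and Hspa5 (-0.43) lay above control in siKlf5, by 0.46 and 0.71. Hspa5 lost its call without siTfap2c replicate 2, siKlf5 replicate 1 or siKlf5 replicate 2. With Bag3, Ddit4, an inhibitor of mTOR (0.95), and Pdia4 (0.88) were higher in siTfap2c.

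Among 36 cell cycle genes 8 were lower and 4 higher (median -0.10), and 4 and 3 held. Cenpe, the kinetochore motor, stood at 7.45 and 7.43 in control, 7.59 and 7.68 in siKlf5 and 5.45 and 5.49 in siTfap2c (difference -2.16, SE 0.06, adjusted p = 2.5e-07), the largest difference of the list by far. The next lower member, Cdkn1c, an inhibitor of cyclin-dependent kinases, differed by -0.87 (adjusted p 0.11 without siKlf5 replicate 2). Cdc25a differed by -0.71 and Cdk2 by -0.66, and Ccne1, cyclin E, by 0.76. Of 43 DNA replication genes 10 were lower and 6 higher (median -0.08), and 5 and 3 held. With centred libraries 15 were lower and 4 higher. Tyms, thymidylate synthase, differed by -1.24, Gins4 by -1.06, Mcm10 by -0.85 and Mcm6 by -0.70, while Gins3 differed by 0.81. Of 15 genes of DNA methylation 5 were lower and 3 higher (median -0.01), and 3 and 0 held. Dnmt3b, a de novo methyltransferase, stood at 3.44 and 3.49 in control, 2.77 and 2.70 in siKlf5 and 1.69 and 1.85 in siTfap2c (difference -0.97, SE 0.13), lower in both. Trim28, a corepressor of imprinted regions, differed by -0.67, and Zfp57, which recruits it, by 0.51 (adjusted p 0.083 without siTfap2c replicate 1).

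Lists of the embryo's age and of housekeeping genes had few calls that held. Of 28 oocyte-inherited transcripts 2 were higher and 1 lower (median -0.02), and only Omt2a (0.71) held. Khdc3 (0.54) and Padi6 (-0.40), both of the oocyte's subcortical complex, had an adjusted p of 0.086 without siKlf5 replicate 1 and of 0.21 without siTfap2c replicate 2. Of 17 two-cell-stage transcripts 4 were higher and 2 lower (median 0.0069), and 3 and 0 held, Tmem92 (1.00), Sp110 (0.99) and Zfp54 (0.81). Of 84 genes of cytosolic ribosomal proteins 8 were lower and 1 higher (median -0.11), and 0 held. Of 64 replication-dependent histones 9 were lower and 4 higher (median -0.16), and 3 and 0 held, Hist1h1d (-0.62), Hist1h4i (-0.59) and Hist1h4n (-0.56). Histone and ribosomal protein genes have near-identical copies between which reads can be split, so single members are uncertain. The scaling bears on these lists most: with centred libraries 16 ribosomal protein genes were lower and 0 higher, and 16 histones lower and 1 higher.

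**Figure D5:**
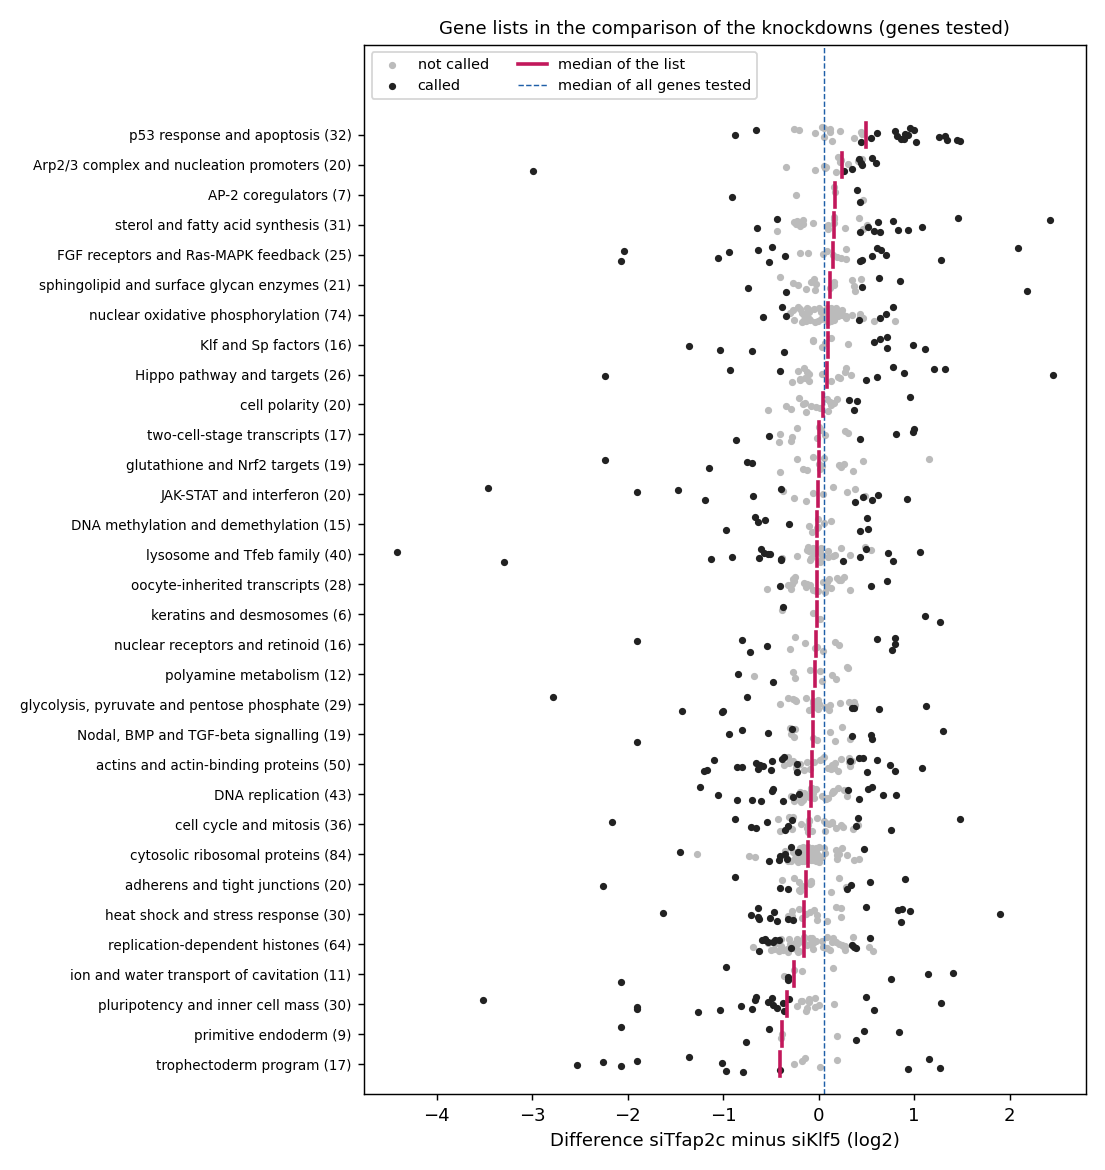
Points are genes of each list with at least 6 genes compared (rows, number compared in brackets) at their difference siTfap2c minus siKlf5 (x axis, log2), black where called and grey where not, with the list's median in pink and that of all genes as the dashed line at 0.06. The medians run from -0.41 for the trophectoderm program to 0.50 for p53 response and apoptosis, and the large single differences lie mostly on the lower side.

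The called genes were spread over all autosomes and the X, and regions within chromosomes were not examined. The share called ran from 24.4% on chromosome 16 to 33.6% on chromosome 12, and on the X 68 genes were higher and 25 lower (median 0.15). In 4 equal bins of mean level it was 20.1%, 27.5%, 32.7% and 35.0% from the lowest to the highest, so low genes were called less often. Among protein-coding genes 29.4% were called, against 10.7% of 84 snoRNA genes, 8 of which were lower in siTfap2c and 1 higher.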

How the data were processed

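The deposited tables hold 1 value per gene symbol and library, log2 of an abundance plus 1 as the authors' table names and the exact zeros show. The kind of abundance is not given in the sources used here. The submitters' processing notes name mm10 with StringTie 1.3.4, Cufflinks, HISAT2 2.1.0 and SAMtools 1.7, in no stated order. Per the labels' protocols, libraries were made with random primers from total RNA and depleted of ribosomal cDNA.

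The deposited log2 values of 10 libraries in 5 groups of 2 were fitted with limma 3.58.1 (eBayes with trend, R 4.3.3), which left 5 residual degrees of freedom. Tests across the 3 tables assume that they were scaled alike. The labels do not say whether libraries come from separate embryo pools, so p-values measure the spread between these libraries, which may be technical. Positions are from GENCODE M21, where 9727 of the genes had 1 model.

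Members and all 35 gene lists were chosen with earlier results of these data known. Genes named are the 4 targets and, with the higher group mean at 10 linear units or more, the 15 largest rises and falls, 10 each way with control at the siTfap2c level, 6 each way alike in both knockdowns, and from each list with at least 3 calls the 4 called members of lowest p. Symbols of predicted genes were left out, and the rises and falls so named had to have no overlap of libraries between the knockdowns. Some genes that this rule names are not reported here, though counts and medians include them. Further list members were named after their values were seen. Alternatives were 2 scalings, added constants of 0.1 and 5, 2 filters, 2 sets of samples, a prior without trend, a replicate block and leaving out each library. Same-numbered siTfap2c and siKlf5 libraries did not deviate together (correlation -0.03). With 2 libraries per group this cannot tell whether the numbers pair them.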

Additional observations from a re-analysis of the deposited data

How the results depend on the processing

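Over the 16 alternatives no named gene or called list member (332 in all) reversed, and 188 kept their call in each alternative in which they were tested. Without siTfap2c replicate 1, siTfap2c replicate 2, siKlf5 replicate 1 and siKlf5 replicate 2 in turn, 115, 108, 106 and 111 of them lost it, without the filter on low values 67, with centred libraries 36 and with the replicate block 16. Leaving out each library in turn, the lone sample of an arm being assumed to vary like the other groups, gave 1706 to 2678 calls (2919 with all), 971 to 1594 higher, 735 to 1084 lower and 474 to 525 at least 2-fold. With all libraries 489 were at least 2-fold, against 850 with an added constant of 0.1 and 138 with 5, a value set by that constant. The control was at the siKlf5 level for 737 to 1048 genes and at the siTfap2c level for 154 to 323. No filter gave 60 genes with control beyond siTfap2c in place of 91. The replicate block gave 2807 calls (1679 higher, 1128 lower), and whether the numbers pair the libraries is not known. Centring moved the median of all genes from 0.06 to -0.03. With unknown depth, a low gene that was not called may still differ.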
